A study of Mus musculus with 22 samples.

Results

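The 7 genes described here, Macf1, Dst, Plec, Dmd, Utrn, Syne1 and Syne2, encode giant proteins that join the cytoskeleton to itself, to the cell membrane or to the nucleus. They were grouped by function, by a rule that uses no measured value, but with earlier results of these data known. Their data were the hnRNP A1 footprints that overlapped the annotated span of one of the 7 genes by at least 1 nt, which made 2073 of the 136207 footprints (1.52%) in 10 footprint lists. hnRNP A1 is a nuclear RNA-binding protein that regulates splicing, and a footprint is a stretch of the genome to which RNA recovered with it was aligned.

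The study set female C57Bl/6 wild-type mice without disease (naïve, n = 3) against mice with experimental autoimmune encephalomyelitis (EAE, n = 7), in which the myelin peptide MOG(35-55), given with complete Freund's adjuvant and pertussis toxin, brings about inflammation of the spinal cord. The mice with mild EAE were EAE_3 and EAE_4 (clinical score 1.5) and EAE_7 (score 1.0). Those with severe EAE were EAE_1 and EAE_5 (score 2.5) and EAE_2 and EAE_6 (score 3.0), and all 7 were killed 15 days after the onset of signs. The sample protocol gives 12 weeks as the age at immunization and the design text 8 weeks. Each spinal cord was crosslinked with UV light and immunoprecipitated with an antibody to hnRNP A1, so a list stands for 1 mouse. In such bulk tissue fewer cells of a type and less RNA per cell cannot be told apart.

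The spectraplakins Macf1 and Dst and the related plakin Plec bind actin, microtubules or intermediate filaments and hold these filaments together along axons and at cell junctions. Dystrophin (Dmd) and its homologue utrophin (Utrn) connect actin to the dystroglycan complex of the membrane, in muscle, glial end-feet, vessels and some neurons. The nesprins Syne1 and Syne2 span the outer nuclear membrane and, with SUN proteins, couple the nucleus to the cytoskeleton. All 7 are built largely from spectrin or plakin repeats, and their messages are among the longest of the genome.

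The lists differed widely in length, most of all within severe EAE. The 3 naïve lists held 17119 to 17494 footprints and the 3 mild EAE lists 9751 to 24433. The severe EAE lists held 2670 (EAE_1), 209 (EAE_2), 31870 (EAE_5) and 673 (EAE_6), so the mean densities of severe EAE rest mainly on EAE_5. By the study's account, the severe EAE mouse that stood apart had been in remission shortly before the end. Footprints of the 7 genes were 1.29 to 2.25% of the list without disease, 1.2 to 1.82% with mild signs and 0 to 1.26% with severe signs. None of the 209 footprints of EAE_2 lay in the 7 genes, which allows a share of up to 1.44% for counting error alone. The 6 footprints in EAE_6 were 0.892% of its list (exact 95% interval 0.328 to 1.93%). How many reads support a footprint is not recorded in the lists.

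One stretch of each of 6 of the genes is shown here, the coding or intronic stretch of 40 to 200 nt that the most mice had in common, because these are the places recovered in the most mice. Letters are the GRCm38.p6 genome, 5′ to 3′ on the gene strand, and capitals mark TAG, the DNA form of the UAG triplet that hnRNP A1 is known to prefer. The lists give no strand, so the strand is that of the gene. Exon numbers follow the longest coding transcript of the GENCODE annotation.
Macf1 (chr4:123474537-123474652, minus strand, coding exon 36, each base in at least 7 of 10 mice): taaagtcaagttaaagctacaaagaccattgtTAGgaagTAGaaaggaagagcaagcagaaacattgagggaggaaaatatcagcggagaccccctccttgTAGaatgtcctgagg
Dst (chr1:34211154-34211294, plus strand, coding exon 50, 7 mice): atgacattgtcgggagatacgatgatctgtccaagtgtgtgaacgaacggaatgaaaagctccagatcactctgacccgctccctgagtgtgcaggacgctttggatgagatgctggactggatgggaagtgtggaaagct
Plec (chr15:76188173-76188270, minus strand, coding exon 18, 7 mice): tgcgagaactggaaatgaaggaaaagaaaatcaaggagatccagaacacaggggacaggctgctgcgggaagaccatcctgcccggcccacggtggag
Syne2 (chr12:75915189-75915256, plus strand, coding exon 19, 6 mice): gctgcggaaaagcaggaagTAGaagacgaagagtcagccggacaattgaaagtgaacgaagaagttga
Utrn (chr10:12710076-12710178, minus strand, coding exon 23, 5 mice): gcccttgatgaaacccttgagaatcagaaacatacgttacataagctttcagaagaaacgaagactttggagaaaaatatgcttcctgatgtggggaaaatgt
Dmd (chrX:83587824-83587888, plus strand, intron, 4 mice): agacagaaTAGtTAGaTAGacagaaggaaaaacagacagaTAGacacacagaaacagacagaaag
The stretch of Dmd differed from the other 5 in kind. It was intronic, it was made of short repeats with 4 UAG in 65 nt, and no severe EAE mouse had it, whereas the Macf1 stretch with 3 UAG lay inside a single coding exon of 5331 nt and was whole in all naïve mice, all mild EAE mice and EAE_5. The stretches of Dst, Plec and Utrn held no UAG.

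Exon footprint density was measured as covered nt per 1000 exonic nt of a gene, with the exons of all its annotated transcripts joined. By this measure Macf1, Syne1, Utrn and Dst stood high among the 5132 genes with exonic footprints in at least 3 mice. In naïve mice 97.6% of the tested genes had a lower mean density than Macf1, 97.1% than Syne1, 96.5% than Utrn, 95.6% than Dst and 88.5% than Plec. Syne2 was above 70.5% of genes and Dmd above 34.5%. Syne1, Macf1 and Dst ranked 2, 3 and 4 of all genes tested by the mean number of covered exonic nt in naïve mice, and 3, 4 and 2 in EAE mice. Their exons ranked 5, 14 and 4 by length.

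Dst, the dystonin gene, whose loss causes sensory neuropathy in mice, is annotated at chr1:33908225-34308661 with 41155 exonic nt. Its density was 231, 80.7 and 212 in mice Naïve_1, Naïve_2 and Naïve_3. It was 172, 159 and 242 in the mild EAE mice EAE_3, EAE_4 and EAE_7. In severe EAE it was 30.5 (EAE_1), 0 (EAE_2), 348 (EAE_5) and 2.7 (EAE_6). Mild EAE values lay within or just above the naïve range, and the severe group held both the highest value of all mice and the 3 lowest. The mean was 136 ± 133 (SD, n = 7) in EAE against 175 ± 81.8 (n = 3) in naïve mice, a difference of -38.2 (two-sided exact permutation p = 0.642, adjusted p = 1).

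Macf1, which crosslinks microtubules and actin and is needed for neuronal migration and transport, is annotated at chr4:123349633-123684360 on the minus strand with 31402 exonic nt. Its density was 196, 146 and 345 in the naïve mice and 106, 126 and 320 in EAE_3, EAE_4 and EAE_7. It was 8.02, 0, 396 and 7.93 in EAE_1, EAE_2, EAE_5 and EAE_6. The mild and naïve ranges overlapped, and EAE_5 was again the highest. The EAE mean of 138 ± 160 (n = 7) and the naïve mean of 229 ± 104 (n = 3) differed by -91.6 (exact permutation p = 0.383, adjusted p = 1).

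Plec, which ties intermediate filaments to other structures and is abundant in astrocytes, is annotated at chr15:76170974-76232574 on the minus strand with 18113 exonic nt. Its density was 79.8, 82.2 and 132 in the naïve mice, 129, 76 and 207 in EAE_3, EAE_4 and EAE_7, and 21.1, 0, 258 and 2.1 in EAE_1, EAE_2, EAE_5 and EAE_6. It was the only member whose mean did not lie below that of the naïve mice, with 99 ± 103 in EAE against 98 ± 29.6 (exact permutation p = 1, adjusted p = 1). That sign changed when any of Naïve_1, Naïve_2, EAE_3, EAE_7 or EAE_5 was left out, with differences from -25.6 to 18.0 over the 10 omissions.

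The nesprin gene Syne1 (chr10:5020917-5551482, minus strand, 40491 exonic nt) had densities of 185, 148 and 292 in the naïve mice. They were 42.4, 142 and 261 in EAE_3, EAE_4 and EAE_7 and 3.26, 0, 299 and 0 in EAE_1, EAE_2, EAE_5 and EAE_6. The second nesprin gene, Syne2 (chr12:75818134-76110926, plus strand, 26726 exonic nt), had lower densities of 5.8, 61.4 and 67.2 in the naïve mice, 11.6, 6.06 and 53 in the mild group, and 5.72, 0, 34 and 0 in the severe group. Every mouse with a footprint in either gene had the higher density in Syne1 except EAE_1. The difference of means, EAE minus naïve, was -101 for Syne1 (exact permutation p = 0.275, adjusted p = 1) and -29.0 for Syne2 (exact permutation p = 0.142, adjusted p = 1). For Syne2 the unadjusted exact permutation p was 0.0278 without Naïve_1 and 0.0476 without EAE_7. These omissions removed the lowest naïve and the highest EAE value. Without any other single mouse p stayed at 0.05 or above.

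Utrn (chr10:12382188-12869365, minus strand, 17108 exonic nt) had densities of 85, 176 and 311 in the naïve mice. They were 30.4, 14.5 and 317 in EAE_3, EAE_4 and EAE_7 and 26, 0, 240 and 0 in EAE_1, EAE_2, EAE_5 and EAE_6. The 2 EAE mice with values inside the naïve range or above it were EAE_7 and EAE_5, the mice with the longest lists. Dmd (chrX:82948870-85206141, plus strand, 23801 exonic nt) was sparse in its exons, with 0, 4.83 and 35.8 in the naïve mice, 0, 0 and 25.5 in the mild group and 5.8, 0, 29.5 and 0 in the severe group. The differences of means were -101 for Utrn (exact permutation p = 0.317, adjusted p = 1) and -4.85 for Dmd (exact permutation p = 0.567, adjusted p = 1).

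**Figure D1:**
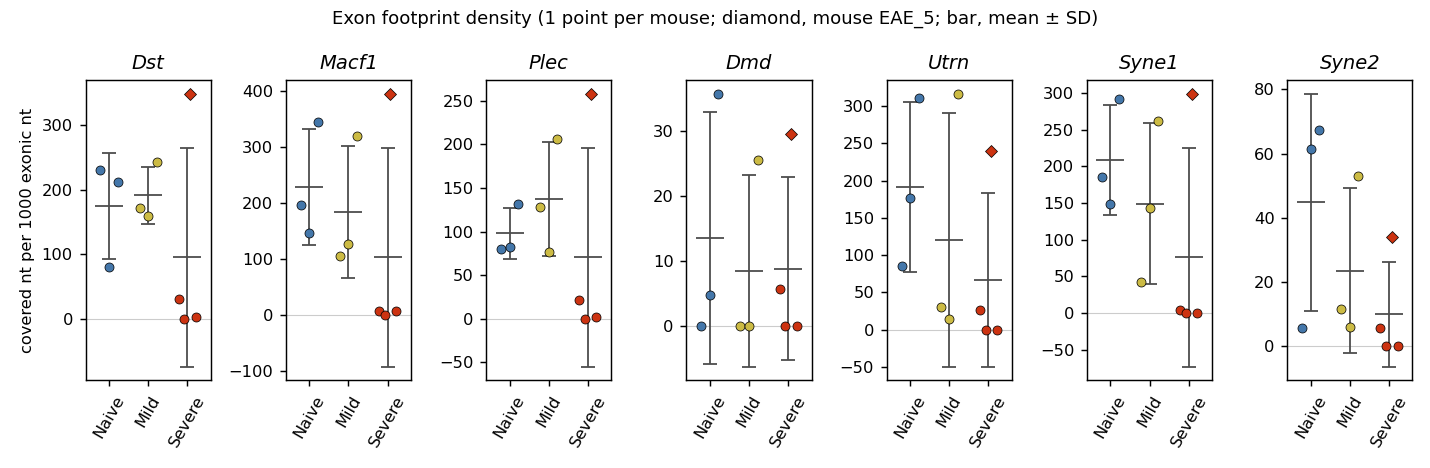
Exon footprint density of the 7 genes (vertical axis, covered nt per 1000 exonic nt, a separate scale for each gene) in naïve, mild EAE and severe EAE mice. Each point is 1 mouse and the bar is the mean with its SD; the diamond, mouse EAE_5, lies at 348 for Dst and 396 for Macf1 while the other severe EAE mice lie at or near 0.

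None of the 7 genes passed an unadjusted exact permutation p of 0.05 for density between EAE and naïve mice, where 2.67% of the 5132 genes tested did (137 genes, 136 of them lower in EAE), and the smallest adjusted p of any gene was 1. In severe EAE against naïve mice none of the 7 passed either, where 3.57% of 3054 genes did. The unadjusted exact permutation p ranged from 0.171 for Syne2 to 0.743 for Plec, and 3 mice against 4 cannot give less than 0.0286. Mild EAE and naïve mice were set side by side by values only, since no split of 3 and 3 mice reaches a p under 0.1, with differences of means from -70.4 for Utrn to 39.0 for Plec. With the 3 mice of fewer than 5000 footprints left out, a comparison chosen after seeing the data, the difference was 7.63 for Macf1, 55.7 for Dst, 69.4 for Plec, -22.1 for Syne1 and -40.5 for Utrn. Scaling by the mapped unique reads of each library, with totals given by the study, changed the calls. Macf1, Dst, Utrn and Syne1 then had a lower density in EAE, with unadjusted exact permutation p from 0.00833 to 0.0333 and adjusted p from 0.253 to 0.353, where 10.5% of all genes tested were called. Of the 10 libraries Naïve_2 had the fewest such reads and EAE_5 and EAE_7 the most. The scaling thus raised Naïve_2 and lowered EAE_5 and EAE_7 relative to the other mice. Footprints did not follow reads across the mice. EAE_1, EAE_2 and EAE_6 had more such reads than Naïve_2 but 2670, 209 and 673 footprints against 17454. Whether scaling by reads suits these lists was not tested.

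The lists were next put on one scale by the share of a gene, its covered exonic nt per 1000000 covered exonic nt of all genes in the same mouse. On this scale Syne1, Syne2, Utrn, Macf1 and Dmd had their single largest share in a naïve mouse, and Dst and Plec in EAE_4. Plec kept nearly the same share in all long lists. Syne1 had shares of 7499, 6370 and 9482 in the naïve mice. Its shares were 1438, 8418 and 5329 in EAE_3, EAE_4 and EAE_7, and 619, 0, 4450 and 0 in EAE_1, EAE_2, EAE_5 and EAE_6. All EAE mice but EAE_4 lay below the lowest naïve mouse. Of these, EAE_1, EAE_2 and EAE_6 had only 213133, 12737 and 55652 covered exonic nt over all genes, against 942303 or more in naïve mice. The 0 of EAE_2 and of EAE_6 thus rests on little coverage. The EAE mean was 2893 ± 3238 against 7783 ± 1576 in naïve mice (exact permutation p = 0.0583, adjusted p = 0.551), and p was 0.0119 by the same exact permutation test without EAE_4. This omission removed the highest EAE value, the only one within the naïve range. The part of all genes that pass without EAE_4 is not given here.

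Utrn had shares of 1458, 3203 and 4270 in the naïve mice, 436, 362 and 2730 in the mild group and 2088, 0, 1509 and 0 in the severe group. The values of 3 EAE mice lay inside the naïve range and the other 4 below it. The EAE mean was 1018 ± 1092 against 2977 ± 1420 (exact permutation p = 0.0583, adjusted p = 0.551). The exact permutation p was 0.0278 without Naïve_1, 0.0357 without EAE_7 and 0.0476 without EAE_1. Each of these omissions removed the lowest naïve value or one of the higher EAE values, and p stayed at 0.05 or above in all others. How many of all genes pass with the same mouse left out is not given here, so such values set no gene apart.

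Syne2 had shares of 155, 1740 and 1440 in the naïve mice, 259, 237 and 713 in the mild group and 718, 0, 334 and 0 in the severe group. Naïve_1 stood with the lower EAE mice and apart from the other naïve mice. The EAE mean was 323 ± 297 against 1112 ± 842 (exact permutation p = 0.05, adjusted p = 0.551), and the exact permutation p was 0.0278 without Naïve_1. That omission removed the lowest naïve value, and leaving out any other mouse gave 0.05 or more. The share of Macf1 was 6184, 4872 and 8693 in the naïve mice, 2780, 5786 and 5066 in the mild group and 1182, 0, 4566 and 4474 in the severe group. Its means were 3408 ± 2154 in EAE and 6583 ± 1942 in naïve mice (exact permutation p = 0.0667, adjusted p = 0.551), with an exact permutation p of 0.0357 without EAE_4. That omission removed the highest EAE value, and in the others p was not under 0.05.

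Plec had shares of 1449, 1579 and 1918 in the naïve mice, 1950, 2011 and 1885 in the mild group and 1792, 0, 1720 and 683 in the severe group. The 8 mice other than EAE_2 and EAE_6 lay within 1449 to 2011. Its means were 1434 ± 778 in EAE and 1649 ± 242 in naïve mice (exact permutation p = 0.783, adjusted p = 1). Dst (4804 ± 3056 in EAE against 6682 ± 3013, exact permutation p = 0.425, adjusted p = 0.984) and Dmd (173 ± 248 against 268 ± 364, exact permutation p = 0.7, adjusted p = 1) differed by less than the spread between mice. None of the 7 genes passed an unadjusted exact permutation p below 0.05 on this scale, where 5.51% of the 5132 genes did, all 283 of them lower in EAE, and the smallest adjusted p of any gene was 0.382.

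**Figure D2:**
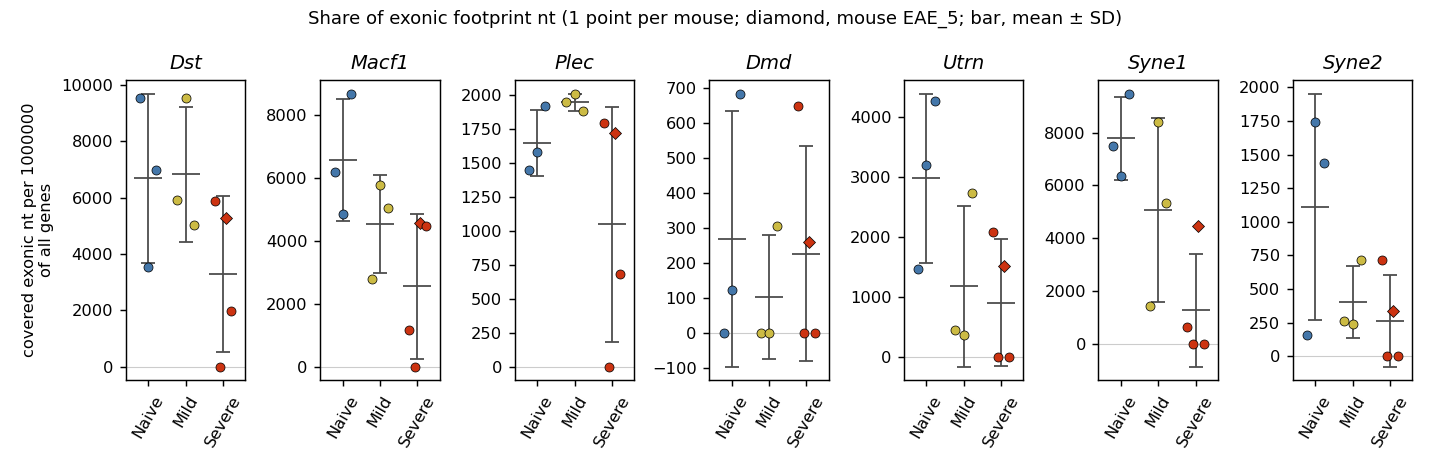
Share of exonic footprint nt of the 7 genes (vertical axis, covered exonic nt of the gene per 1000000 covered exonic nt of all genes in the mouse, a separate scale for each gene) by group. Each point is 1 mouse, the bar is the mean with its SD and the diamond is mouse EAE_5; Plec lies at 1449 to 2011 in all mice but EAE_2 and EAE_6, while Syne1 lies below the lowest naïve mouse in all EAE mice but EAE_4. The shares of EAE_1, EAE_2 and EAE_6 come from short lists.

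Some pairs of members had similar shares from mouse to mouse. Over the 10 mice Spearman's rho was 0.939 for Utrn with Syne2 and 0.924 for Macf1 with Syne1, against 0.146 for Dst with Syne2. These are descriptions over mice that differ in list length and disease. The genes outside the family with the most similar share over the 10 mice, among 1744 genes footprinted in at least 6 mice, were Map4k4, Abr and Ryr2 for Dst (rho 0.936, 0.924 and 0.912) and Ttc7b, AC122861.1 and Arhgef12 for Syne1 (rho 0.972, 0.966 and 0.954). Picked as the highest of so many, these values are high by selection. Those named for Syne1 all had a share of 0 in EAE_1, EAE_2 and EAE_6, the mice with the shortest lists.

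Markers of other cell types differed between the same mice. The 5 markers of endothelium and meninges (Cldn5, Flt1, Pecam1, Dcn, Col1a2) together had a share of 38.1 in Naïve_1 against 2600 and 1748 in Naïve_2 and Naïve_3, of 227 to 1085 in the mild and of 426 to 15702 in the severe group, the last from 200 nt of Col1a2 in EAE_2. Cldn5 and Pecam1 were at 0 in Naïve_1 and in 6 of the 7 EAE mice, and Flt1 alone of the 5 passed an unadjusted p of 0.05 (density lower in EAE, exact permutation p = 0.025, adjusted p = 1), where 2.67% of all genes did. The meningeal and fibroblast markers lay the other way. Dcn was at 0 in all naïve mice and covered in 3 EAE mice, and Col1a2 had a mean density of 3.59 in naïve mice, from Naïve_2 alone, and of 23.3 in EAE, where all 7 mice had coverage (exact permutation p = 0.0667, adjusted p = 1). Flt1, a vascular receptor, had 38 covered nt in Naïve_1, 1788 in Naïve_2, 1819 in Naïve_3, 1056 in EAE_7 and 726 in EAE_5, and none in the other 5 mice. These are the mice in which Utrn and Syne2 had their most covered nt, with 3018, 5328, 5420 and 4106 nt of Utrn in Naïve_2, Naïve_3, EAE_7 and EAE_5 against 0 to 1454 nt in the others. Dmd exons, too, were covered by over 100 nt in those 4 mice and in EAE_1 and by none in the other 5. Naïve_2, Naïve_3, EAE_7 and EAE_5 were also the mice with the longest lists, of 17454, 17494, 24433 and 31870 footprints, Naïve_1 having 17119. The parts of vessel RNA and of list length in the coverage and shares of Utrn, Syne2 and Dmd were not tested.

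Of the 7 markers of microglia and leukocytes, all 7 were footprinted in some EAE mouse and none in a naïve mouse, and their summed share was 0 in naïve mice, 1237 to 2345 in the mild group and 0 to 2677 in the severe group. Ptprc was covered in 1 mouse only. None of the 6 tested passed an unadjusted exact permutation p of 0.05 for density or share, where 2.67% and 5.51% of all genes did. The part of all genes that was covered in EAE mice only is not given here. The 5 neuronal markers were all footprinted, with summed shares of 681 to 825 in naïve mice, 337 to 1689 in the mild group and 0 to 938 in the severe group. Oligodendrocyte markers lay at 316 to 1909, 999 to 1592 and 0 to 1419 in the same groups, and astrocyte markers at 959 to 2992, 2318 to 3370 and 0 to 6531. The part of infiltrating cells in the shares of the 7 genes was not tested. Of the 7 skeletal muscle markers, Ttn and Ryr1 had 134 and 153 nt in Naïve_2, and Neb, Acta1, Ckm, Myh1 and Myh4 were at 0 in every mouse.

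Where in the genes the footprints lay separated Dmd from the other members. By the position of the footprint's midpoint, 499 of the 521 footprints of Dst lay in coding sequence and 15 in introns. For Macf1 these were 428 and 17 of 448, for Syne1 502 and 17 of 525, for Utrn 212 and 9 of 223, for Plec 125 and 1 of 128, and for Syne2 70 and 0 of 71. Only 1 footprint of Macf1, 1 of Dst, 1 of Plec, 4 of Syne1 and 1 of Syne2 fell in a 5′ UTR, and 11 of the 2073 footprints in a 3′ UTR. In Dmd 131 of 157 footprints (83.4%) were intronic and 25 coding. All 7 spans are mostly intron, since exons make up 1.05% of Dmd, 3.51% of Utrn and 29.4% of Plec.

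**Figure D3:**
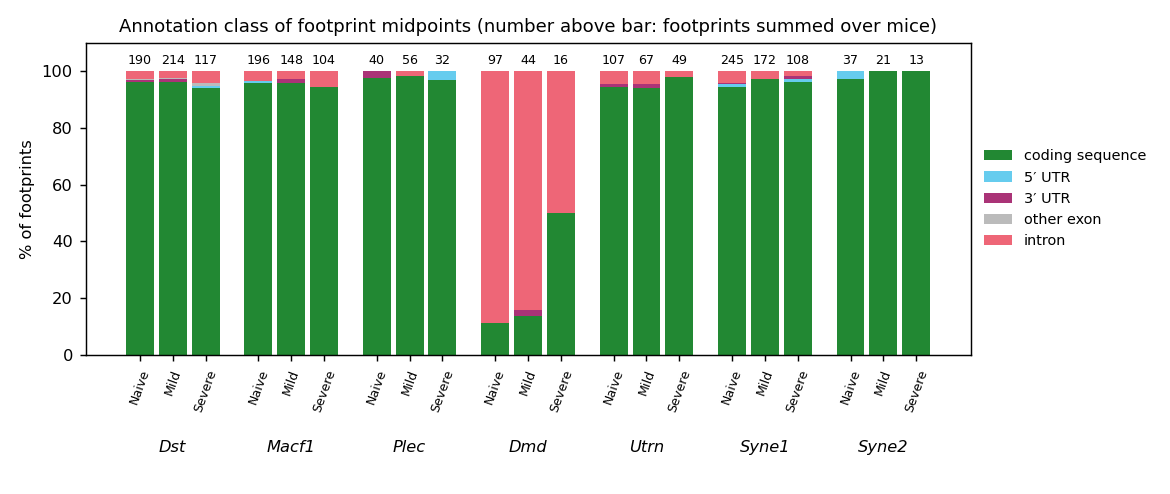
Annotation class of the footprints of each gene, in % of the footprints summed over the mice of a group (vertical axis), with the number of footprints above each bar. Coding sequence (green) holds most footprints in every group for the 6 genes other than Dmd, while introns (pink) hold 88.7% of the naïve and 84.1% of the mild EAE footprints of Dmd.

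Over the 7 genes the intronic share was 19.1, 13.3 and 6.87% in the naïve mice. It was 17.8, 6.21 and 3.5% in EAE_3, EAE_4 and EAE_7, and 6.67% of 30 footprints in EAE_1, 4.71% in EAE_5 and 16.7% of 6 footprints in EAE_6 (exact 95% interval 0.421 to 64.1%). The means were 13.1 ± 6.12% (n = 3) in naïve and 9.26 ± 6.29% (n = 6, EAE_2 having no footprint) in EAE mice, a difference smaller than either SD. Without Dmd the means were 3.78 ± 2.69% and 5.82 ± 5.64%, so the direction of the difference rested on Dmd.

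The exonic footprints followed the borders of exons. Of 1883 footprints centred in an exon, 80.4% had an end exactly at an annotated exon end of the gene, 1193 of them 1 end and 320 both, and those 320 were exactly 1 whole exon each. The share with such an end was 91.1% for Utrn, 85.9% for Syne2, 83.7% for Syne1, 81.4% for Dst, 77.7% for Macf1, 73.1% for Dmd and 52% for Plec. Contigs were aligned with splicing allowed, so an aligned spliced RNA gives separate footprints that end where its exons end. Plec, with the lowest share, has much of its coding sequence in 2 exons of 3381 and 7412 nt.

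Most exons of the larger members were footprinted in some mouse. Along the longest coding transcript, only 3 of 103 exons of Dst, 6 of 98 of Macf1, 8 of 146 of Syne1, 9 of 75 of Utrn and 6 of 33 of Plec had no coverage in any mouse, against 74 of 116 of Syne2 and 59 of 79 of Dmd. Exons covered in at least 5 mice numbered 46 in Dst, 35 in Syne1, 32 in Macf1, 8 in Utrn, 7 in Plec, 2 in Syne2 and 0 in Dmd. The broadest were the 5331-nt exon 36 of Macf1 and the 162-nt exon 61 of Dst, each covered in 8 of 10 mice.

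Coverage was spread over the length of the spectraplakin and Syne1 messages and uneven in Plec and Syne2. With the transcript cut into 3 equal parts, the part at the 3′ end held 37.2% of the covered nt of Macf1, 39.6% of Dst and 28.9% of Syne1, summed over mice. It held 9.99% for Plec, 11.5% for Syne2 and 20.8% for Utrn. In Plec the 7412-nt last exon, which encodes most of the plectin repeats, had 3733 covered nt over the 10 mice, a mean of 50.4 per 1000 nt, against 203 per 1000 nt for the 3381-nt exon before it. In naïve mice exons of at least 1000 nt were less densely covered than the other exons of Dst (133 against 348 per 1000 nt), Macf1 (199 against 343) and Plec (106 against 136), as they were in Syne1 (252 against 309) and Dmd (0 against 28.7). In Syne2 they were more densely covered (63.5 against 53.8), and Utrn has none of that length.

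Exons that are not part of the longest coding transcript were sparsely covered, with 36 per 1000 nt against 234 per 1000 nt inside it for Dst, 25.9 against 212 for Macf1 and 16.2 against 113 for Plec. For Utrn and Syne1 only 7 and 2 nt of coverage fell outside it. One block of Dst outside this transcript was the exception, at chr1:34177796-34183904, where 7 mice had coverage with 327 to 742 nt in naïve mice, 446 to 813 nt in the mild group and 2141 nt in EAE_5. Its first part overlaps Gm26788, annotated on the opposite strand, in whose exons 28 footprints of Dst lay. Without strand these cannot be assigned to either gene. Leaving out exonic nt shared with other genes moved none of the 7 genes past the unadjusted p of 0.05 for density or share, by the same exact permutation test.

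**Figure D4:**
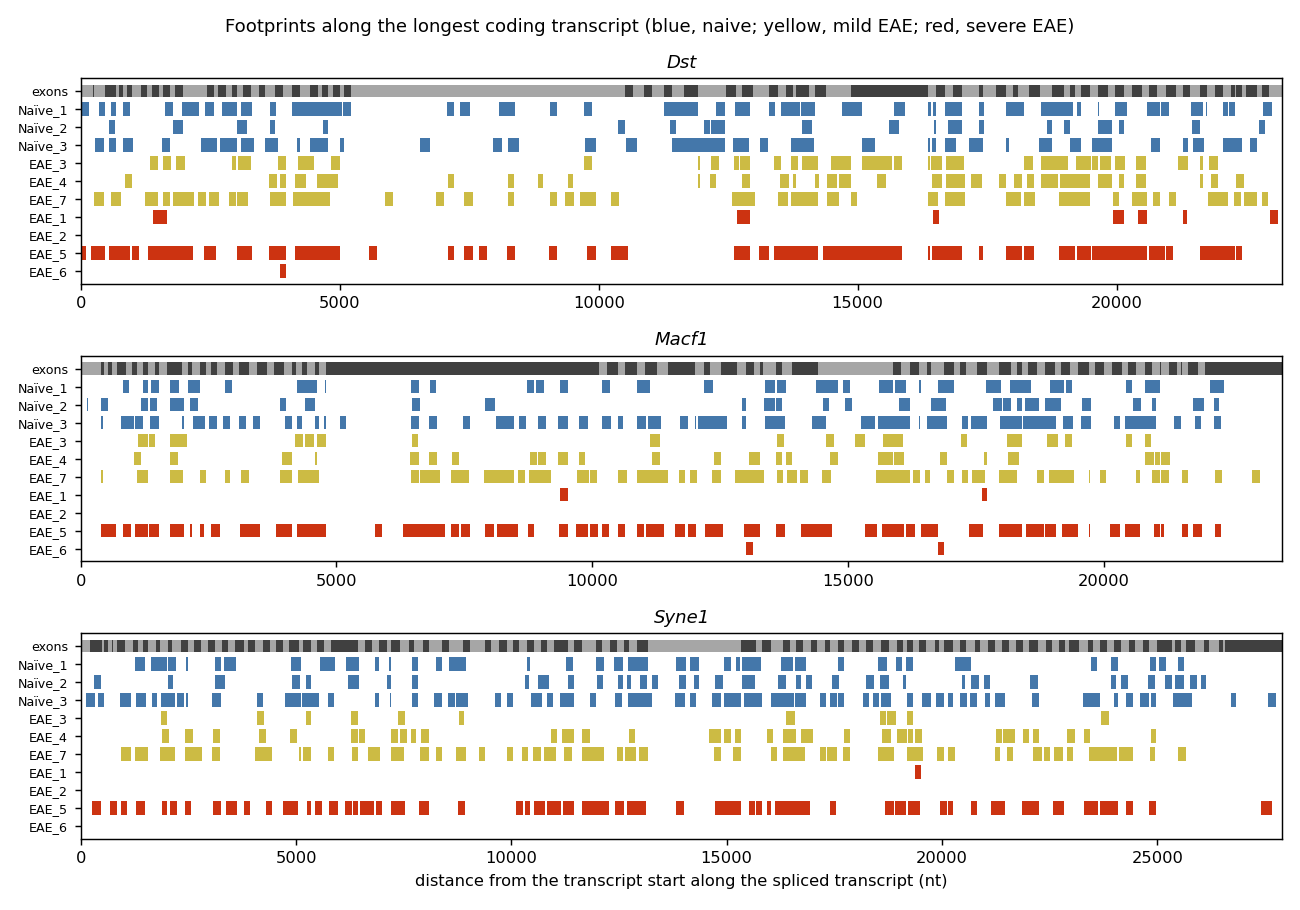
Footprints along the spliced longest coding transcript of Dst, Macf1 and Syne1 (horizontal axis, nt from the transcript start; rows, mice; top row, exons in alternating shades). Footprints reach from the first to the last part of each message in naïve mice, in EAE_7 and in EAE_5, and few or none are seen in EAE_1, EAE_2 and EAE_6.

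The study asked for sites shared by mice of a group. A shared stretch was counted where more than 1 nt was covered in at least 2 mice of the group, and 300 such stretches lay in the 7 genes without disease, 190 with mild and 27 with severe EAE. Dst had 64, 70 and 13 in these groups, Macf1 68, 45 and 3, Syne1 82, 47 and 2, Utrn 37, 8 and 3, Plec 11, 17 and 4, Syne2 7, 2 and 2, and Dmd 31, 1 and 0. Dst and Plec were thus the members with more shared stretches in mild EAE than in naïve mice. All 27 stretches of severe EAE needed EAE_5, since none was left without it, and 4 were left without EAE_1. Coding sequence held 265 of the naïve, 187 of the mild and 27 of the severe EAE stretches.

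Of the 300 naïve stretches, 99 (33%) overlapped a mild EAE stretch and 9 (3%) a severe EAE stretch. Of the 190 mild EAE stretches 101 (53.2%) overlapped a naïve one. By gene, the overlap was 36 of 64 naïve and 38 of 70 mild EAE stretches for Dst and 28 of 68 and 29 of 45 for Macf1. It was 23 of 82 and 22 of 47 for Syne1 and 5 of 37 and 4 of 8 for Utrn. Among single EAE mice the order followed list length. Of the naïve stretches 65% were covered in EAE_5, 56.3% in EAE_7, 31% in EAE_3, 25.7% in EAE_4, 3.33% in EAE_1, 0.333% in EAE_6 and 0% in EAE_2. EAE_5, with a severe score, thus covered more of them than any mild EAE mouse, and it had the longest list. In all, 58 naïve stretches were covered in no EAE mouse. Of these, 17 lay in Syne1, 15 in Dmd, 10 in Dst, 6 in Utrn, 5 in Macf1, 4 in Syne2 and 1 in Plec. The numbers of shared stretches over all genes, and of their overlap between groups, are not given here. Whether the loss of shared stretches in EAE is particular to these genes was therefore not tested, and such counts set no gene apart.

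The intronic footprints of Dmd lay almost wholly in one place. A block of 20730 nt, chrX:83583138-83603867, held 120 of the 157 Dmd footprints (76.4%), defined after they were seen as the run of footprints no more than 2000 nt apart. The block lies in the intron of 134522 nt between exons 7 and 8 of the longest coding transcript, 23394 nt before exon 8, and the other 113792 nt of that intron had no footprint in any mouse. No other gene is annotated there in GENCODE. Counting by bins of 20000 nt, the bin with the most naïve footprints in the genome was in this block, with 67, followed by 2 bins with 63 and 62 in which Kcnq1 and the antisense RNA Kcnq1ot1 are both annotated.

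The block was footprinted 44, 15 and 21 times in the naïve mice, with 9036, 1863 and 3218 covered nt. It was footprinted 24, 7 and 2 times in the mild EAE mice EAE_3, EAE_4 and EAE_7, with 3532, 844 and 281 nt. In EAE_5 it had 7 footprints and 863 nt, and in EAE_1, EAE_2 and EAE_6 none. EAE_7 and EAE_5, whose lists are the longest, thus had fewer of these footprints than any naïve mouse, while EAE_3 lay within the naïve range. Per 1000000 footprint nt of the list, the block took 4071, 907 and 1471 nt in the naïve mice and 2281, 730 and 94.1 in mild EAE. It took 208 in EAE_5 and 0 in the other severe EAE mice. The means were 2149 ± 1687 in naïve mice and 473 ± 839 in the 7 EAE mice, and no test was made of a region chosen from these footprints.

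Taking the whole span of each gene, introns included, Dmd was the only member with an unadjusted exact permutation p below 0.05 between EAE and naïve mice. Its density over the span was lower in EAE (difference of means -1.97 nt per 1000 nt, exact permutation p = 0.0167, adjusted p = 0.515), where 6.18% of 6731 genes were called, and so was its share (exact permutation p = 0.025, adjusted p = 0.401), where 7.84% were called. Most of this difference lay in the block, which had a mean of 4706 covered nt in naïve and 789 in EAE mice, so the span test rests on a region already picked from its footprints and is no independent support. Of the 31 naïve shared stretches of Dmd, 30 lay in the block. Mild EAE mice had 1 shared stretch there, of 20 nt, and severe EAE mice none.

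**Figure D5:**
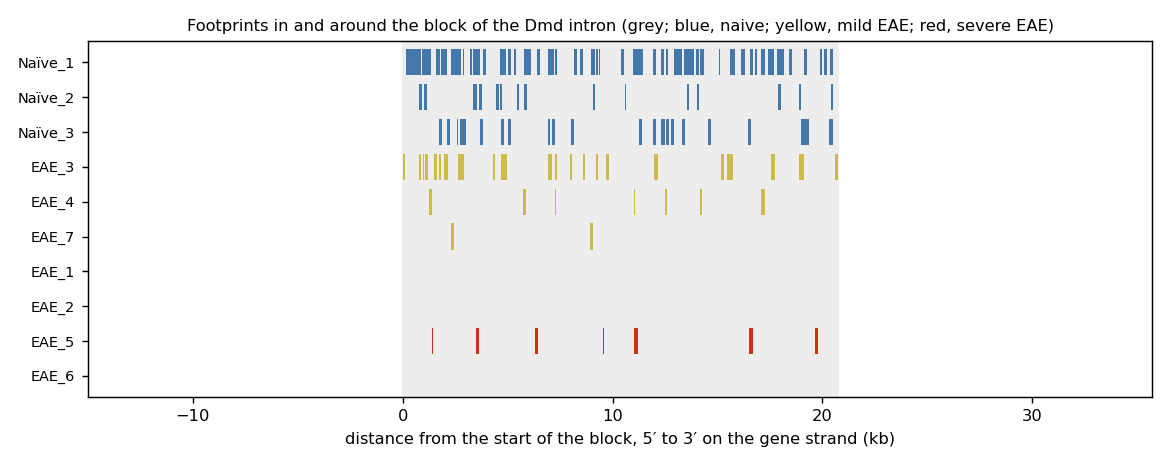
Footprints in and around the intronic block of Dmd (grey), as distance in kb from the start of the block (horizontal axis) for each of the 10 mice (rows). All footprints in the window lie inside the block, with 15 to 44 in naïve mice, 2 to 24 in the mild group, 7 in EAE_5 and none in EAE_1, EAE_2 and EAE_6.

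The sequence of the block is as unusual as its footprints, as the printed stretch shows. On the strand of Dmd it is 46.4% A, 26.6% G, 17.3% C and 9.65% T, with caga its most frequent run of 4 letters (91.8 per 1000 nt), and 80% of it is marked as repeat in the assembly, against 34.7% and 26.9% in the 10000 nt on either side. UAG occurs 34.2 times per 1000 nt on the gene strand (710 times) and 1.5 times on the other strand. In the rest of the intron UAG occurs 16.5 and 14.9 times per 1000 nt on these strands. Inside the block, nt covered in some mouse held 36 UAG per 1000 nt and the uncovered nt 31.3.

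Among 127724 windows of the length of the block tiled over chromosomes 1 to 19, X and Y, 11 (0.00861%) held as many UAG per 1000 nt on their denser strand, the window over the block being 1 of them. The median window held 14.4. Of the 10 other windows 9 had no footprint in any mouse, 7 of them with no annotated gene, and 1, in Rasgrf1, had 42 footprints over the 10 mice. It was footprinted in every naïve and mild EAE mouse and in EAE_5, with 7, 3 and 8 footprints in naïve mice, 7, 4 and 4 in the mild group and 9 in EAE_5. When the block's footprints were searched against the whole genome at 95% identity over 90% of their length, 117 of 120 were found at their own place only, and the other 3, of at most 23 nt, were too short for the search. UAG in these windows is a count of letters and says nothing of binding.

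In exons the footprints of the 5 most covered genes held about as many UAG as the coding sequence of the same genes, or fewer. Per 1000 nt on the gene strand, UAG occurred 9.6 times in the covered exonic nt of Macf1, 5.75 in Dst, 5.16 in Syne1, 5.06 in Utrn and 3.02 in Plec. All coding nt of the same genes held 9.59, 6.89, 5.2, 4.96 and 2.9, and all exonic nt, UTRs included, 9.87, 8.36, 7.98, 6.61 and 3.7. Syne2 had 5.96 in covered and 5.39 in coding nt, and Dmd, from 31 UAG in 2416 covered nt, 12.8 and 7.96. The tetramer AGGU, which holds no complete UAG but can overlap one, occurred 2.89 to 3.97 times per 1000 covered nt in these 5 genes and 2.9 to 4.18 times in their coding nt. By mouse, UAG in covered exonic nt of the 7 genes lay between 4.72 (EAE_1) and 6.82 (EAE_4) per 1000 nt, with the naïve mice at 6.3, 6 and 6.25. AGGU occurred 3.21, 3.02 and 3.09 times per 1000 covered nt in the naïve mice and 3.86, 3.55 and 3.13 times in EAE_3, EAE_4 and EAE_7. It occurred 3.99 times in EAE_1 and 3.49 times in EAE_5, and not at all in the 398 nt of EAE_6. EAE_1 (from 11 AGGU), EAE_3, EAE_4 and EAE_5 thus lay above the highest naïve mouse and EAE_7 within the naïve range, a difference that was not tested. The mix of covered genes also differed between mice. Coding nt of the genes, weighted by the covered nt of each gene, held 3.41, 3.23 and 3.26 AGGU in the naïve mice. They held 3.61, 3.41, 3.34, 3.54 and 3.39 in EAE_3, EAE_4, EAE_7, EAE_1 and EAE_5. The part of this mix in the difference was not tested.

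Genes of related proteins and of partners of the 7 proteins were counted from lists of known members. Of 8 spectrin-repeat actin linkers 7 were footprinted and tested, 6 with a lower mean density in EAE, and none passed an unadjusted exact permutation p of 0.05 for density or share, where 2.67% and 5.51% of all genes did. The median difference of density was -24.8, against -0.255 over all genes tested, of which 50.6% had a lower mean in EAE. These 7 genes had naïve densities of 57.2 to 239 against a median of 22.4 for all genes, and a difference of densities grows with their level. Sptan1, the non-erythroid alpha spectrin of axons, had a density of 176 ± 151 in EAE and 239 ± 68.2 in naïve mice (exact permutation p = 0.508, adjusted p = 1). Sptbn1, its common beta partner, had 84.2 ± 79 and 140 ± 15.6 (exact permutation p = 0.283, adjusted p = 1).

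Of 16 genes of the dystrophin-associated complex 9 were footprinted and 5 tested, 3 with a lower mean in EAE and none called, with a median difference of -7.58. Among all genes 2.67% were called by density and 5.51% by share, so a count of 0 in 5 genes does not set the list apart. The most covered were Agrn, the agrin gene of synaptic and vascular basement membrane, with 52.6 ± 57.4 in EAE and 79.9 ± 42.7 in naïve mice (exact permutation p = 0.525, adjusted p = 1), and Dtna, the alpha-dystrobrevin gene, with 16.9 ± 26.9 and 12.6 ± 10.9 (exact permutation p = 0.858, adjusted p = 1). Of 10 genes of the nuclear envelope bridge 7 were footprinted and 4 tested, 1 with a lower mean in EAE. That one was Emd, the gene of the inner nuclear membrane protein emerin, with 143, 108 and 126 covered nt in the naïve mice, none in any mild EAE mouse and 132 nt in EAE_1 alone of the severe EAE mice. Its density was 49.9 ± 6.95 in naïve and 7.49 ± 19.8 in EAE mice (exact permutation p = 0.025, adjusted p = 1), while its share gave an exact permutation p of 0.9.

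The other 3 tested genes of that list had a higher mean in EAE, none of them past the test. Tor1aip1, a lamina-associated protein gene, had 0 nt in every naïve mouse and 580, 112 and 171 nt in EAE_7, EAE_5 and EAE_6 (exact permutation p = 0.592, adjusted p = 1). Lmna, the lamin A gene, had 0 nt in naïve mice and 143, 128 and 271 nt in EAE_4, EAE_7 and EAE_5 (exact permutation p = 0.417, adjusted p = 1). The other plakin genes Dsp, Evpl, Ppl and Eppk1, which serve mainly in epithelial junctions, were covered in none of the 10 mice.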

How the data were processed

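hnRNP A1 CLIPseq footprints of spinal cord were taken from 10 mice, 1 list per mouse. The authors trimmed reads (bcl2fastq 2.19.0.316, fastp), assembled them into contigs, aligned the contigs with splicing to GRCm38 (minimap2 2.17), removed sites found in the matched input or pooled IgG, and merged overlaps with bedtools. The deposited lists hold positions only (chromosome, start and end, another kind of value than counts), without strand, score or depth. Removal of input sites can take away sites of abundant RNA, and merging can join sites. Inputs and IgG pools were not analysed here.

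Footprints overlapping the GENCODE vM21 span of a gene by at least 1 nt were assigned to it and classed by their midpoint. Python 3.11.15 with NumPy 2.4.6 and SciPy 1.17.1 computed covered nt per 1000 exonic nt (density) and per 1000000 covered exonic nt of the mouse (share), for genes with exonic footprints in at least 3 mice. Treatment and clinical score came from the sample labels. Mild and severe are the groups of the study, with severe EAE at a score of 2.5 or more. The study made this split after it had seen distinct footprints in such mice. Differences of group means were tested two-sided by exact permutation, with every split of the mice (120 for 7 EAE against 3 naïve mice, 35 for 4 severe against 3 naïve), counting splits with at least as large an absolute difference, with Benjamini-Hochberg adjustment over all genes. The test was checked on simulated data. Sequences were read with pysam 0.24.0, and repeats of the block's footprints were searched with BLAST 2.17.0. The intervals of shares are exact 95% binomial and cover counting error only.

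The 7 genes and the lists of partners and markers were chosen with earlier results of these data known. All 7 genes are named. Partners are named where all mice of 1 group and none of another had a footprint, or as the 2 most covered of a list, and Flt1, Cldn5, Pecam1 and the markers at 0 were named after their values were seen. The alternatives were the whole span, coding transcripts only, exonic nt of other genes left out, a log2 scale, scaling by reads, minimum lengths, and each mouse left out. Some items are not reported here.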

Additional observations from a re-analysis of the deposited data

Results flagged for a closer look

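Mouse EAE_5 stood far above the other 3 severe EAE mice in 7 of the 14 sets of severe EAE values examined, the density and the share of each of the 7 genes. The gap from EAE_5 to the next mouse, as a fraction of the whole range of the 4 values, was 0.980 for the density of Macf1, 0.912 for Dst, 0.918 for Plec, 0.892 for Utrn, 0.989 for Syne1 and 0.832 for Syne2. For the share it was 0.861 for Syne1. Each of these passed the 95% limit of Dixon's test for 4 values, which chance alone passes in about 1 of 20 groups. The density values are not independent of each other, since all come from lists of 31870 footprints in EAE_5 against 209 to 2670 in the other 3 mice, and the part of list length in them was not tested.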

How the results depend on the processing

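Among the differences of single genes recomputed under an alternative, 317 kept their direction and their side of an unadjusted exact permutation p of 0.05, 14 kept their direction and newly passed it, and 19 changed sign. By whole gene span 1 of the 7 genes passed for density and 1 for share, and by mapped reads 4 passed for density. With 1 mouse left out at a time, 0 to 1 genes passed for density, 0 to 2 for share and 0 to 0 in severe EAE. The part of all genes passing under each omission is not given here, so these counts do not set the 7 genes apart. Signs turned for the share of Dst (87.9) and Plec (131) by whole span. The density of Plec turned to -1.75 without exonic nt of other genes, -1.58 on the log2 scale, -12.1 by reads and -48.1 with the replicate block (paired by number). No exact permutation p below 0.25 is possible with 3 pairs, so the block could make no call. The correlation of same-numbered deviations was -0.0349, 0.0721 and -0.0314 over 5132 genes, within the -0.0777 to 0.0789 of the other pairs. It gave no sign of pairing, but 3 pairs cannot exclude it. With the 3 mice of fewer than 5000 footprints left out, chosen after seeing the data, density differences turned to 7.63 for Macf1, 55.7 for Dst and 0.228 for Dmd, and the share of Plec to 243. With 1 mouse left out, ranges were -25.6 to 18.0 (Plec density), -11.6 to 6.28 (Dmd density), -314 to 24.7 (Plec share), -229 to 112 (Dmd share) and -11.6 to 6.42 (Dmd density, severe EAE). The other differences between EAE and naïve mice kept their sign. Density ranged from -85.1 (without Naïve_2) to -10.1 (without Naïve_1) for Dst, from -135 (EAE_5) to -33.6 (Naïve_3) for Macf1, from -154 (Naïve_1) to -41.0 (Naïve_3) for Utrn, from -133 (EAE_5) to -59.5 (Naïve_3) for Syne1 and from -48.5 (Naïve_1) to -17.8 (Naïve_3) for Syne2. Share ranged from -3457 (Naïve_2) to -456 (Naïve_1) for Dst, from -4031 to -2120 for Macf1, from -2719 to -1313 for Utrn, from -5811 to -4041 for Syne1 and from -1267 to -475 for Syne2. The difference in intronic share, -3.82 percentage points, lay between -6.93 and -0.808 with 1 mouse left out and was 2.04 without Dmd, also chosen after seeing the data. Shared stretches numbered 111 to 206 in naïve mice, 74 to 119 in mild EAE and 0 to 27 in severe EAE with 1 mouse left out, and 0 in severe EAE where 3 mice were required. List length, from 209 to 31870 footprints, limits every value of EAE_1, EAE_2 and EAE_6, and the lists do not give the depth behind a footprint or its strand.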
